A study of Mus musculus with 23 samples.

Results

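The aminoacyl-tRNA synthetases were examined as a family in ribosome-associated RNA from mouse spinal cord. A gene was a member if its name in the count tables equalled the synthetase symbol, and 36 of 38924 gene entries were members. Of these, 20 encode cytosolic enzymes and 16 have a name ending in 2 and encode mitochondrial enzymes. The mitochondrial counts below cover 15 genes, because Lars2 collects reads that resemble ribosomal RNA and is described apart.

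Each synthetase joins 1 amino acid to its matching transfer RNA, the step that supplies charged transfer RNAs to the ribosome. In the cytosol, 8 of the enzymes listed here (Eprs, Iars, Lars, Mars, Qars, Rars, Kars and Dars) sit in the multisynthetase complex, and the other 12 genes (Aars, Cars, Farsa, Farsb, Gars, Hars, Nars, Sars, Tars, Vars, Wars and Yars) encode enzymes outside it. Gars and Kars each serve both compartments from a single gene. Dominant mutations of Gars, the glycyl-tRNA synthetase gene, and of several other cytosolic synthetase genes cause Charcot-Marie-Tooth neuropathy, in which the axons of motor neurons fail. Many cytosolic synthetase genes are transcribed under ATF4, the transcription factor of the integrated stress response.

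The RiboTag method pulls down ribosomes that carry an HA-tagged Rpl22 protein, which a cell makes only after Cre recombinase has acted. All 23 libraries came from spinal cords of mice aged 2 weeks on a strain background labelled B6.CgxB6.129, and all carried 1 copy of the tagged Rpl22 allele (Rpl+/-). The wild-type Cre group (n = 5, Chat+/-, C201R+/+) and the mutant Cre group (n = 6, Chat+/-, C201R+/-) also carried ChAT-Cre, so the tag is expected in cholinergic cells, which include motor neurons but also other cholinergic neurons. The wild-type no-Cre group (n = 6, Chat+/+, C201R+/+) and the mutant no-Cre group (n = 6, Chat+/+, C201R+/-) had no Cre and measure the RNA that is carried along without tagged ribosomes. The series title places this age before disease onset. The mutant allele, GarsC201R, changes 1 amino acid, so the Gars level is no check of the genotype labels. The labels do not say that the libraries of a group are separate animals, so the p-values measure the spread between these libraries.

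Total estimated counts ran from 9031654 to 19671869 per library, but ribosomal RNA-like entries took 50.6 to 95.6% of them. The cytosolic synthetases together received 879 to 25424 counts per library and the 15 mitochondrial ones 38 to 1212. Levels are given as CPM, the usual counts scaled to library size, with sizes adjusted by edgeR's TMM method over all 23 libraries. The summed CPM of 6 motor neuron markers was 333 to 467 in wild-type Cre, 115 to 416 in mutant Cre, 18.3 to 82.3 in wild-type no-Cre and 19.8 to 24.8 in mutant no-Cre libraries. Glial markers ran the other way: the 6 oligodendrocyte markers summed to 534 to 2944, 790 to 6907, 6983 to 13450 and 7199 to 16684 CPM in the same order. Within the Cre groups, wild-type replicate 2 (2944 CPM) and mutant replicates 4 (5012 CPM) and 6 (6907 CPM) stood highest in oligodendrocyte markers, with motor neuron sums of 333, 170 and 115 CPM. None of the motor neuron, oligodendrocyte, astrocyte or microglia markers found was at 0 in every library of a group. Replicates are numbered here within a group by order of deposit only.

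Promoter sequences are shown first because 13 of the cytosolic genes (Aars, Cars, Eprs, Gars, Iars, Lars, Mars, Nars, Sars, Tars, Vars, Wars and Yars) are reported ATF4 targets, and ATF4 with its partners binds a short element. RefSeq promoters of the GRCm38.p6 build, from 250 bases before to 50 bases after the annotated start, were searched on both strands for TGATGNAA. An entry was found for 28 of the 36 members. Cars, Hars, Lars, Nars, Rars, Vars, Wars and Pars2 had none. The motif was in 1304 of 32851 promoters, 3.97%. It was in 5 of the 13 cytosolic genes with an entry, all 5 of them among the 8 ATF4-listed genes with an entry, and in 0 of 5 other cytosolic genes. It was in 0 of 14 mitochondrial genes. Lists of ATF4 targets draw in part on such elements, so this overlap is not independent of the list. Sites of these genes are printed 5′ to 3′ on the strand of the gene, with the motif or its reverse complement in capitals.

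Gars chr6:55037941-55038000 (+): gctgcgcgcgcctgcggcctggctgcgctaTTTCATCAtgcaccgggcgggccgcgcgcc
Tars chr15:11399666-11399725 (-): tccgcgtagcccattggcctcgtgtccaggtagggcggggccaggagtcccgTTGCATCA
Aars chr8:111033840-111033869 (+): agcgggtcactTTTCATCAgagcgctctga
Iars chr13:49682126-49682155 (+): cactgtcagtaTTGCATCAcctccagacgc
Yars chr4:129189895-129189924 (+): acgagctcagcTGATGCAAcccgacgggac

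Counted from 0 at the RefSeq start site, the Gars motif lay at -30 to -23 and the Tars motif at -15 to -8. The printed Aars site lay at 9 to 16, the Iars motif at 7 to 14 and the Yars motif at 3 to 10, so these sites were just inside the transcribed sequence. Read on the strand of the motif, the printed Tars, Iars and Yars sites were TGATGCAA, and the printed Gars and Aars sites were TGATGAAA. In each printed site but that of Yars the motif read on the strand opposite to the gene. A match is a description of these letters and not evidence of binding.

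The cytosolic and the mitochondrial enzymes stood apart in where their messages were found. Summed over the 20 cytosolic genes, the level was 472 to 842 CPM in wild-type Cre libraries (median 634) and 533 to 984 in mutant Cre libraries (median 717). Without Cre it was 218 to 368 in wild type (median 237) and 220 to 517 in mutant libraries (median 328). All wild-type Cre values therefore lay above all wild-type no-Cre values, and all mutant Cre values above all mutant no-Cre values. On the deposited TPM scale, which is not adjusted for the ribosomal RNA-like share, the cytosolic sums overlapped in wild type (193 to 642 with Cre, 62.9 to 292 without) and not in the mutant (330 to 965 with Cre, 43.9 to 211 without). The sum over the 15 mitochondrial genes overlapped in every pairing: 33.3 to 37.0 CPM in wild-type Cre, 32.1 to 39.6 in mutant Cre, 28.6 to 39.4 in wild-type no-Cre and 22.3 to 44.9 in mutant no-Cre libraries. In bulk RNA of this kind, more tagged cells and more RNA per tagged cell cannot be told apart.

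**Figure D1:**
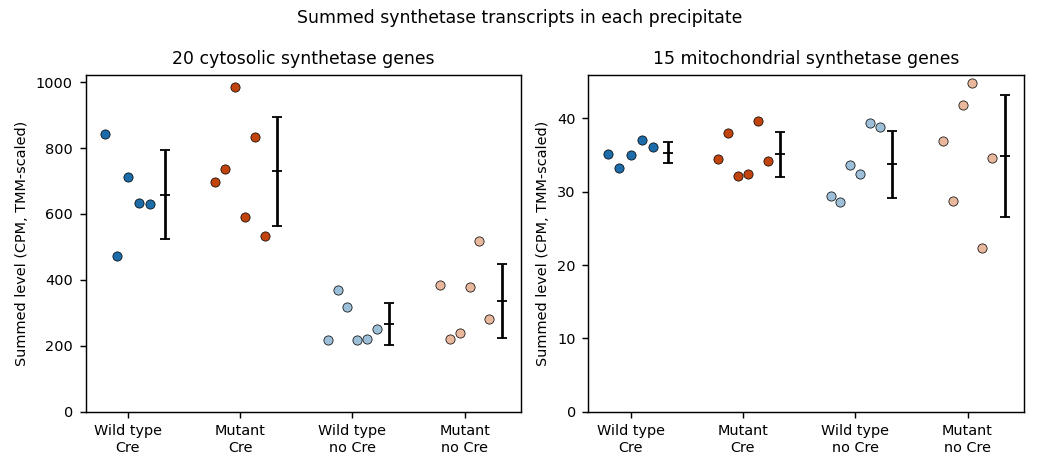
Summed level of the 20 cytosolic genes (left) and of the 15 mitochondrial genes without Lars2 (right) in CPM, 1 point per library for the 4 groups, with the group mean and SD as bars beside the points. The cytosolic sums of the Cre groups (472 to 984) lie above those of their no-Cre groups of the same genotype, and the mitochondrial sums (22.3 to 44.9) overlap in all groups.

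The ratio of cytosolic to mitochondrial TPM within a library needs no scaling between libraries. This ratio was 13.9 to 19.9 in wild-type Cre (median 18.1) and 14.7 to 28.3 in mutant Cre libraries (median 20.9). It was 6.31 to 15.1 in wild-type no-Cre (median 7.88) and 6.18 to 26.9 in mutant no-Cre libraries (median 9.18). The top no-Cre values overlapped the Cre groups. The 26.9 of mutant no-Cre replicate 5 rests on 38 mitochondrial counts, and the 15.1 of wild-type no-Cre replicate 2 goes with the highest motor neuron marker sum of any no-Cre library, 82.3 CPM. The part of either in the ratio was not tested.

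Per length, Nars, the asparaginyl enzyme gene, was the most abundant cytosolic synthetase message in the Cre libraries. It made up 19.9% of the cytosolic synthetase TPM on average in wild-type Cre and 18.7% in mutant Cre libraries. Nars was also first by mean share in wild-type no-Cre libraries (11.75%). In mutant no-Cre libraries it followed Sars (9.99 against 13.1%), so a high rank was not particular to the Cre libraries. In wild-type Cre libraries Sars (seryl, 13.1%), Hars (histidyl, 11.2%), Gars (8.57%), Yars (tyrosyl, 7.96%), Wars (tryptophanyl, 6.47%) and Aars (alanyl, 5.42%) followed, and Qars (glutaminyl, 0.907%) was last. In mutant Cre libraries the order was Sars (12%), Gars (9.60%), Wars (8.70%), Hars (8.03%) and Rars (arginyl, 5.43%), with Farsa (an alpha subunit of the phenylalanyl enzyme, 1.08%) last. Most neighbours in these orders overlapped. Only the step from Nars to Sars had no overlap among 19 steps in wild-type Cre, and the steps from Nars to Sars and from Hars to Rars in mutant Cre libraries. No step was free of overlap in either no-Cre group. The median share of Gars was 8.44 and 9.82% in wild-type and mutant Cre libraries, against 5.53 and 5.85% without Cre. Its shares overlapped in wild type (7.33 to 10.2% with Cre, 2.225 to 7.48% without). They did not in the mutant (7.87 to 10.6% with Cre, 1.91 to 7.00% without). Iars showed the reverse: its share was 1.76 to 2.56% in wild-type Cre (median 1.80) and 2.36 to 3.11% in mutant Cre libraries (median 2.86), but 3.12 to 14.6% in wild-type no-Cre and 3.43 to 9.06% in mutant no-Cre libraries. Within each genotype the Cre shares of Iars thus lay wholly below its no-Cre shares. Qars did so in wild type only (0.414 to 1.27% against 2.48 to 8.71%). Mean shares of other genes, among them Mars, Tars and Vars, were also lower with Cre in both genotypes. A share can fall while a level does not: the median Iars CPM was 21.2 with Cre against 19.0 without in wild type. In the mutant it was 40.0 against 24.4.

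**Figure D2:**
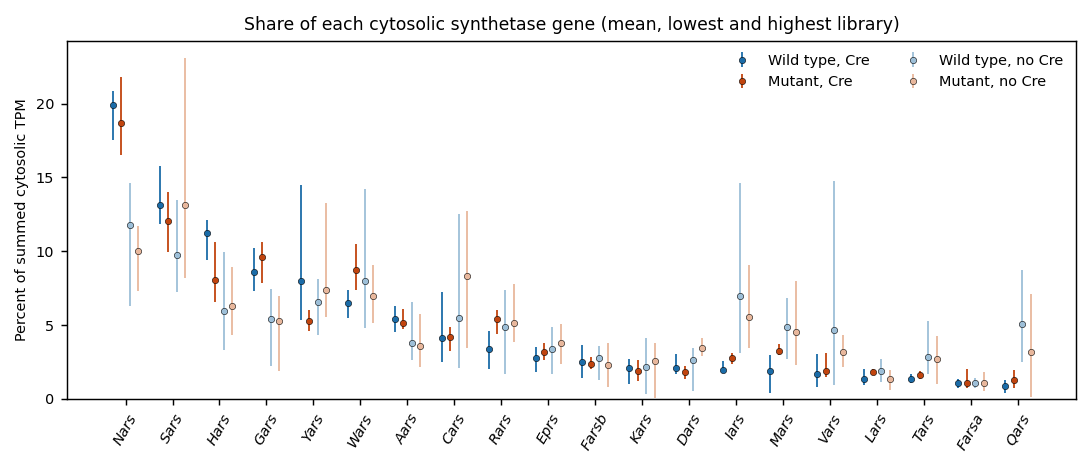
Share of the summed cytosolic synthetase TPM taken by each of the 20 genes, in percent, with the group mean and the range over libraries for the 4 groups. Nars leads in both Cre groups (19.9 and 18.7%) and in wild-type no-Cre libraries (11.75%), and the ranges of most neighbours overlap.

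Gars (ENSMUSG00000029777, chromosome 6, 55038007 to 55079500 on the plus strand of GRCm38) was measured in every library. The wild-type Cre libraries gave 70.4, 42.4, 54.9, 57.7 and 64.0 CPM, a mean of 57.9 ± 10.5 (SD, n = 5). The mutant Cre libraries ran from 47.9 to 106 with a median of 71.7 and a mean of 70.1 ± 21.4 (SD, n = 6). Without Cre, the wild-type libraries ran from 6.38 to 36.7 (median 15.5, mean 18.0 ± 10.7, SD, n = 6) and the mutant libraries from 12.9 to 27.0 (median 17.7, mean 18.4 ± 5.37, SD, n = 6). The lowest Cre library was thus above the highest no-Cre library, and the 2 genotypes overlapped both with and without Cre. The next sections give the tests, all by edgeR's quasi-likelihood method over every gene that passed the low-count filter, with Benjamini-Hochberg adjustment and a threshold of 0.05.

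The comparison of Cre with no Cre asks which messages are carried by the tagged ribosomes beyond the background of the pull-down. In wild type, 15 of the 20 cytosolic synthetases were higher with Cre and 0 were lower, and their median log2 difference was 1.03 against -0.14 over all genes tested. Over all 12485 genes tested, 46.0% were called and 20.0% were called higher. Outside the multisynthetase complex 10 of 12 were higher (median 1.19), and in the complex 5 of 8 (median 0.87). Among the ATF4-listed genes 9 of 13 were higher (median 1.00) and among the others 6 of 7 (median 1.06). The Cre and no-Cre libraries also differed in every marker sum given above, and the part of the other cell types' RNA in these differences was not tested.

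Hars, the histidyl enzyme gene (ENSMUSG00000001380), had the highest log2 difference in wild type, 2.24 (SE 0.28, adjusted p = 1.47e-05). Its wild-type Cre libraries gave 90.3, 35.5, 65.3, 68.2 and 62.3 CPM, and the no-Cre libraries 11.3 to 23.5 (median 13.1). Even the low replicate 2 was above every no-Cre library. Aars, the alanyl enzyme gene (ENSMUSG00000031960), gave 107, 50.9, 81.4, 77.2 and 73.0 CPM with Cre against 14.2 to 33.5 (median 18.2), a log2 difference of 2.02 (SE 0.27, adjusted p = 2.83e-05). Nars (ENSMUSG00000024587) gave 218, 102, 166, 133 and 144 CPM against 20.0 to 79.5 (median 37.5), a log2 difference of 1.94 (SE 0.32, adjusted p = 0.000196). For both genes the groups did not overlap. The log2 difference was 1.78 for Gars (SE 0.35, adjusted p = 0.000664), 1.71 for Yars (SE 0.28, adjusted p = 0.000153) and 1.31 for Sars (SE 0.23, adjusted p = 0.000325).

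The remaining calls in wild type were smaller. Among them Kars (lysyl) had a log2 difference of 1.27 (SE 0.45, adjusted p = 0.0288), Farsb (the phenylalanyl beta subunit) one of 1.07 (SE 0.27, adjusted p = 0.00392), Cars (cysteinyl) one of 1.06 (SE 0.35, adjusted p = 0.0206) and Eprs (the joint glutamyl and prolyl enzyme) one of 0.96 (SE 0.26, adjusted p = 0.00607). Farsa (1.06), Wars (1.00), Dars (aspartyl, 0.89), Lars (leucyl, 0.87) and Rars (0.87) were also called, at adjusted p from 0.0254 to 0.0459. Of the 11 fits that left out 1 library, 9 lost the Wars call, 6 each lost Farsa, Dars, Lars and Rars, 4 lost Kars and 3 lost Cars. The members that did not pass were Mars (methionyl, 0.50), Vars (valyl, 0.44), Tars (threonyl, 0.21), Iars (isoleucyl, 0.09) and Qars (0.04). Of the genes with a TGATGNAA match, Aars, Gars and Yars were called and Iars and Tars were not. Any relation of the match to these calls was not tested. The libraries did not overlap for 8 cytosolic genes (Aars, Eprs, Farsb, Gars, Hars, Nars, Sars and Yars). Of 12984 genes with a mean of at least 10 counts, 12.8% had every wild-type Cre library above every no-Cre library.

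The number of calls in wild type depended on single libraries and on the scaling. Leaving out 1 library gave 8 (without no-Cre replicate 5) to 16 (without no-Cre replicate 2) cytosolic calls, and 9 each without Cre replicate 3 or no-Cre replicate 4. Over all genes these fits called 4878 (without no-Cre replicate 5) to 6474 (without no-Cre replicate 2). Library totals without TMM gave 3, with 906 genes called in all. A leading number in the sample titles, whose meaning the labels do not give, was shared by some libraries of different groups. With it as a block 9 were called, with 4557 genes called in all. Within titles 20302 and 20401 the difference was above 0 for 19 of 20 cytosolic genes each, with medians of 1.11 and 0.83. Title 20302 held 2 wild-type Cre libraries but only 1 wild-type no-Cre library, replicate 1. Title 20401 held Cre replicates 1 and 2 and no-Cre replicates 4, 5 and 6.

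In the mutant, 10 of the 20 cytosolic synthetases were higher with Cre and 0 were lower, with a median log2 difference of 0.80 against -0.14 over all genes. The background was 33.3% of 12741 genes called, 14.1% called higher and 19.2% called lower. In the complex 2 of 8 were higher (median 0.47) and outside it 8 of 12 (median 1.00). Among the ATF4-listed genes 6 of 13 were higher (median 0.76) and among the others 4 of 7 (median 0.83). Gars led with 1.87 (SE 0.26, adjusted p = 6.11e-05), followed by Nars with 1.81 (SE 0.28, adjusted p = 0.000156). The Nars libraries ran from 98.6 to 215 CPM with Cre (median 146) and from 28.8 to 70.5 without (median 35.0), with no overlap. Lars was higher by 1.42 (SE 0.20, adjusted p = 8.51e-05), from 7.04 to 9.45 CPM without Cre (median 7.32) to 17.8 to 26.9 with it (median 20.6). Aars (64.1 to 124 CPM against 18.6 to 57.4) was higher by 1.39 (SE 0.28, adjusted p = 0.00134) and Hars (42.0 to 53.9 against 11 to 31.9) by 1.2 (SE 0.26, adjusted p = 0.00229). None of these 5 genes overlapped between the groups.

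Smaller calls in the mutant were Wars (1.08), Farsb (1.07), Yars (0.93), Rars (0.91) and Farsa (0.83), at adjusted p from 0.0101 to 0.0423. Of the 12 fits that left out 1 library, 8 lost Rars, 7 lost Farsa and 5 lost Wars. No call was made for Sars (0.76), Eprs (0.69), Cars (0.55), Kars (0.49), Vars (0.45), Qars (0.45), Mars (0.44), Iars (0.29), Tars (0.11) and Dars (-0.16). Mars, Vars, Tars, Iars and Qars were without a call in either genotype. The libraries did not overlap for 7 cytosolic genes (Aars, Farsa, Gars, Hars, Lars, Nars and Yars) and for mitochondrial Yars2. Of 13251 genes with a mean of at least 10 counts, 9.38% had every mutant Cre library above every mutant no-Cre library. Leaving out 1 library gave 7 (without no-Cre replicate 2) to 16 (without no-Cre replicate 5) cytosolic calls. Over all genes these fits called 3451 to 4989. With the title number as a block, only Gars (1.85, adjusted p = 0.0304) and Nars (1.82, adjusted p = 0.0246) were called. That fit rests on title 18405, the only number that both mutant groups hold, with 2 Cre libraries and 1 no-Cre library. These Cre libraries, replicates 4 and 6, were the highest of all Cre libraries in oligodendrocyte markers (5012 and 6907 CPM). They were also the lowest in motor neuron markers (170 and 115 CPM). Within title 18405, 20 of 20 cytosolic genes were above 0, with a median of 1.11.

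**Figure D3:**
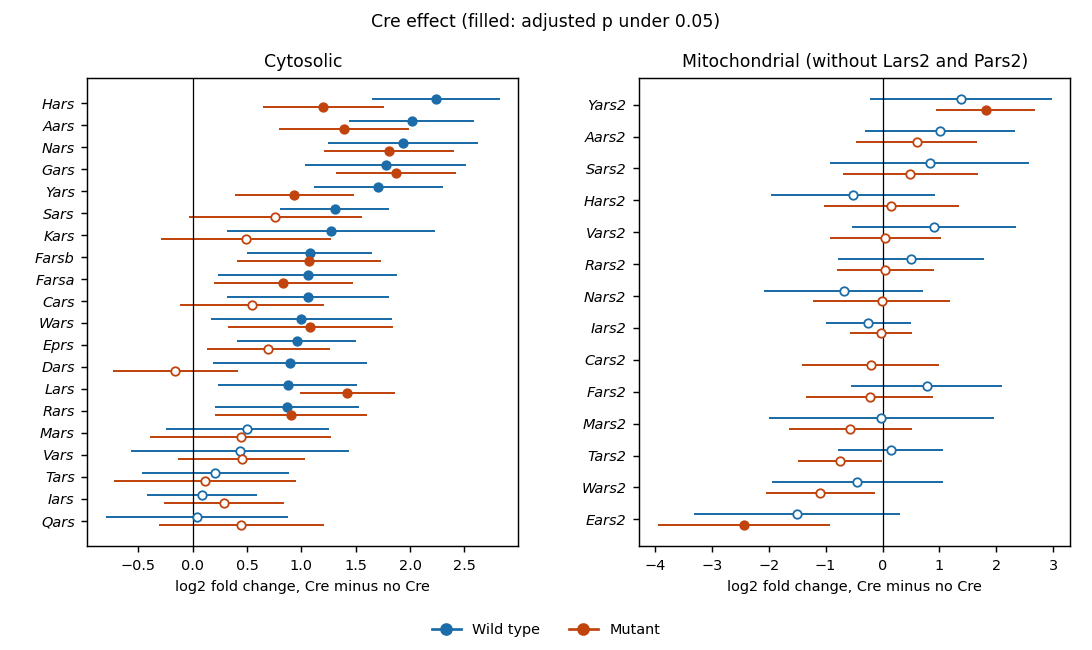
Log2 difference of Cre against no Cre with its 95% interval for each tested synthetase, in wild type (blue) and in mutant (red), cytosolic genes left and mitochondrial genes right. Filled points passed the adjusted threshold, and a line marks 0. The cytosolic genes lie to the right of 0 (medians 1.03 and 0.80) except Dars in the mutant (-0.16), and the mitochondrial genes lie on both sides with wide intervals.

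The mitochondrial enzymes showed few calls. In wild type, edgeR called 0 of the 13 tested with Cre against no Cre, at a median log2 difference of 0.14 and a range of -1.50 to 1.37. At an unadjusted p under 0.05 the count was also 0. DESeq2 called 0, where it called 6361 genes in all. limma-voom called 2, 1 of them higher, where it called 8547 genes in all. In the mutant, 2 of 14 were called, at a median of -0.02. Yars2, the mitochondrial tyrosyl enzyme gene (ENSMUSG00000022792, chromosome 16, 16302965 to 16309640), was higher with Cre by 1.81 (SE 0.40, adjusted p = 0.00273). Its mutant libraries ran from 3.01 to 5.37 CPM with Cre (median 4.60) and from 0.431 to 2.30 without (median 1.06). In wild type it gave 3.57, 4.43, 4.06, 4.46 and 2.50 CPM with Cre and 0 to 3.78 without (median 1.12), which overlap.

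Ears2, the mitochondrial glutamyl enzyme gene, was lower with Cre in the mutant by a log2 difference of -2.43 (SE 0.71, adjusted p = 0.0148). Its libraries ran from 0.0989 to 0.941 CPM with Cre (median 0.382) and from 0.43 to 8.41 without (median 1.32), so the groups overlapped. Without mutant no-Cre replicate 4, the library at 8.41, the difference was -1.41 (adjusted p = 0.0818). With library totals only it was -0.91 (adjusted p = 0.427), and with the title number as a block -0.34 (adjusted p = 0.923). At such levels a library holds few reads per gene: of the 15 mitochondrial genes only Iars2, the isoleucyl enzyme gene, reached a median of 9.01 CPM or more in each group. Iars2 ran from 4.37 to 12.5 CPM in wild-type Cre, 8.09 to 13.9 in mutant Cre, 5.17 to 17.0 in wild-type no-Cre and 6.69 to 16.2 in mutant no-Cre libraries. The other 14 genes had medians from 0 to 4.91 CPM, and Pars2, the prolyl enzyme gene, passed the low-count filter only in the fit of all groups that compares the genotype effects. In the genotype comparison with Cre, the 95% interval reached a median of 0.81 on the log2 scale to either side of the estimate for the mitochondrial genes, against 0.46 for the cytosolic ones.

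The comparison of mutant with wild type among Cre libraries asks how GarsC201R changes messages on tagged ribosomes. edgeR called 0 of the 20 cytosolic and 0 of the 14 mitochondrial synthetases tested, against 0.331% of 12399 genes called. At an unadjusted p under 0.05 the counts were 5 of 20 (4 higher in the mutant) and 1 of 14 (higher), where all genes gave 17.0% in either direction and 8.16% higher. The median log2 difference was 0.16 for the cytosolic genes (14 of 20 above 0), -0.07 for the mitochondrial genes and 0.06 over all genes. No synthetase had groups free of overlap, where 1.05% of genes were wholly higher and 1.18% wholly lower in the mutant. The upper bound of the 95% interval was below 1 on the log2 scale, a doubling, for 16 of the 20 cytosolic genes, and the lower bound was above -1 for all 20.

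Gars itself differed by a log2 value of 0.26 between the genotypes (SE 0.22, 95% interval -0.20 to 0.73, adjusted p = 0.532). Mutant Cre libraries at 73.9, 75.8 and 106 CPM lay above all wild-type ones, and those at 69.5, 48.1 and 47.9 within the wild-type range. Counts per gene do not separate the mutant from the wild-type allele, so this is the level of both together, and the interval runs from below 0 to less than a doubling.

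Iars (ENSMUSG00000037851, chromosome 13, 49682100 to 49734267) had the smallest p of the family in this comparison. Wild-type Cre libraries gave 14.7, 20.9, 23.4, 25.7 and 21.2 CPM, and mutant Cre libraries ran from 24 to 45.4 with a median of 40.0. Only mutant replicate 6, at 24 CPM, fell within the wild-type range, and it was also the library lowest in motor neuron markers and highest in oligodendrocyte markers. The log2 difference was 0.79 (SE 0.20, 95% interval 0.36 to 1.22), with an adjusted p of 0.100 that missed the threshold. No-Cre libraries held Iars at 18.1 to 29.2 CPM in wild type and 19.0 to 47.0 in the mutant, so the wild-type Cre libraries lay within or below the no-Cre range, and the part of untagged RNA in the Iars level was not tested.

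Of 22 alternative analyses, 6 called Iars and 16 did not (adjusted p from 0.071 to 0.42), with a difference from 0.69 to 1.56 over all of them. Among those that called it, DESeq2 gave 0.77 (adjusted p = 0.0184, with 3.33% of all genes called) and limma-voom with quality weights 0.74 (adjusted p = 0.0172, with 7.0% called). The title-number block gave 1.07 (adjusted p = 0.0376, with 0.202% called). Leaving out wild-type Cre replicate 2 gave 0.76 (adjusted p = 0.0457, with 8.41% called). Leaving out the libraries of title 18405, which holds mutant but no wild-type Cre libraries, gave 0.98 (adjusted p = 0.0234, with 0.277% called). Leaving out the 3 Cre libraries highest in oligodendrocyte markers gave 0.95 (adjusted p = 0.00524, with 10.9% called). These last 2 fits were not planned in advance, and both left out mutant Cre replicates 4 and 6. The last also left out wild-type Cre replicate 2, so these calls are not separate from each other. Within title numbers, on log2(CPM + 1), Iars was 0.82 higher in the mutant for 20302 and 1.32 higher for 20401, each with 2 libraries per genotype.

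Other complex enzymes lay in the same direction without passing. Mars gave 5.16, 6.19, 9.10, 5.97 and 9.10 CPM in wild-type and 7.22 to 13.9 (median 11.4) in mutant Cre libraries, a log2 difference of 0.61 (SE 0.21, adjusted p = 0.190). Rars gave 11.9, 9.56, 15.9, 18.3 and 9.89 CPM against 13.8 to 26.3 (median 18.4), a difference of 0.55 (SE 0.21, adjusted p = 0.243). Lars gave 20.2, 9.78, 24.1, 15.4 and 9.89 CPM against 17.8 to 26.9 (median 20.6), a difference of 0.42 (SE 0.24, adjusted p = 0.370). The genotypes overlapped for each of the 3 genes. Over the 8 complex genes the median difference was 0.37 with 6 above 0, and over the 12 outside it 0.12 with 8 above 0. Among no-Cre libraries the complex median by genotype was 0.44, also with 6 above 0, and that outside it 0.30 with 9 above 0. The complex genes were thus above 0 to a like extent in the untagged background.

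Outside the complex, Wars gave 44.4, 33.6, 44.8, 32.2 and 37.3 CPM in wild-type and 36.5 to 75.1 (median 56.4) in mutant Cre libraries. Its log2 difference was 0.55 (SE 0.20, adjusted p = 0.220). It was 0.69 (adjusted p = 0.0199) without the 3 libraries highest in oligodendrocyte markers. That fit, not planned in advance, was the only one of 22 alternatives that called Wars. Cars gave 21.4, 7.99, 15.4, 16.3 and 7.96 CPM against 14.5 to 24.1 (median 19.3), a difference of 0.49 (SE 0.26, adjusted p = 0.330). Tars gave 13.3, 8.29, 8.52, 9.22 and 11.8 CPM against 10.3 to 14.9 (median 12.9), a difference of 0.34 (SE 0.18, adjusted p = 0.334). Among the 13 ATF4-listed genes 11 were above 0 with a median of 0.32, and among the other 7 cytosolic genes 3 were above 0 with a median of -0.03. Over all genes the median was 0.06. The lists were chosen with earlier results of these data known, so this split describes the values and is not a test. Within title 20302 the listed genes above 0 numbered 10 of 13 and within 20401 13 of 13, against 3 of 7 other genes in each. Without Cre, 10 of 13 listed genes were above 0 with a median of 0.43 and 5 of 7 others with a median of 0.38, so the listed genes were also above 0 in the untagged background, together with the others. Within title 20301, the only number with no-Cre libraries of both genotypes, 6 of 13 listed genes were above 0.

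Hars lay in the opposite direction. Against the wild-type Cre values of 90.3, 35.5, 65.3, 68.2 and 62.3 CPM, the mutant Cre libraries were tightly grouped at 42.0 to 53.9 (median 45.1). The log2 difference was -0.49 (SE 0.21, 95% interval -0.94 to -0.05, adjusted p = 0.264). Wild-type replicate 2 was the single library of its group below the mutant range. Without it Hars was lower in the mutant by -0.66 (adjusted p = 0.0242), and limma-voom, which weights libraries, gave -0.59 (adjusted p = 0.0356). Without the 3 libraries highest in oligodendrocyte markers it was -0.68 (adjusted p = 0.0177), but library totals without TMM turned it to 0.51 (adjusted p = 0.280). Of 22 alternatives, 3 called Hars: limma-voom and the fits without wild-type replicate 2 and without those 3 libraries. Those 3 libraries include wild-type replicate 2, and the fit without them was not planned in advance. Within titles 20302 and 20401 the difference on log2(CPM + 1) was -0.57 and -0.21. Hars lies head to head with Hars2 on chromosome 18 (36766528 to 36783205 on the minus strand and 36783008 to 36792562 on the plus strand), and both had fractional counts, a sign of reads shared with other genes, in 17 of 23 libraries.

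The mitochondrial genes nearest to a call were the asparaginyl and phenylalanyl enzyme genes. Nars2 gave 1.79, 1.05, 0.993, 1.06 and 0.455 CPM in wild-type and 0.944 to 2.71 (median 2.15) in mutant Cre libraries, a log2 difference of 0.93 (SE 0.39, adjusted p = 0.258). Fars2 gave 2.58, 1.14, 2.15, 1.06 and 1.71 CPM against 0.627 to 1.68 (median 0.93), a difference of -0.76 (SE 0.38, adjusted p = 0.319). Both overlapped between genotypes and rest on few reads.

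**Figure D4:**
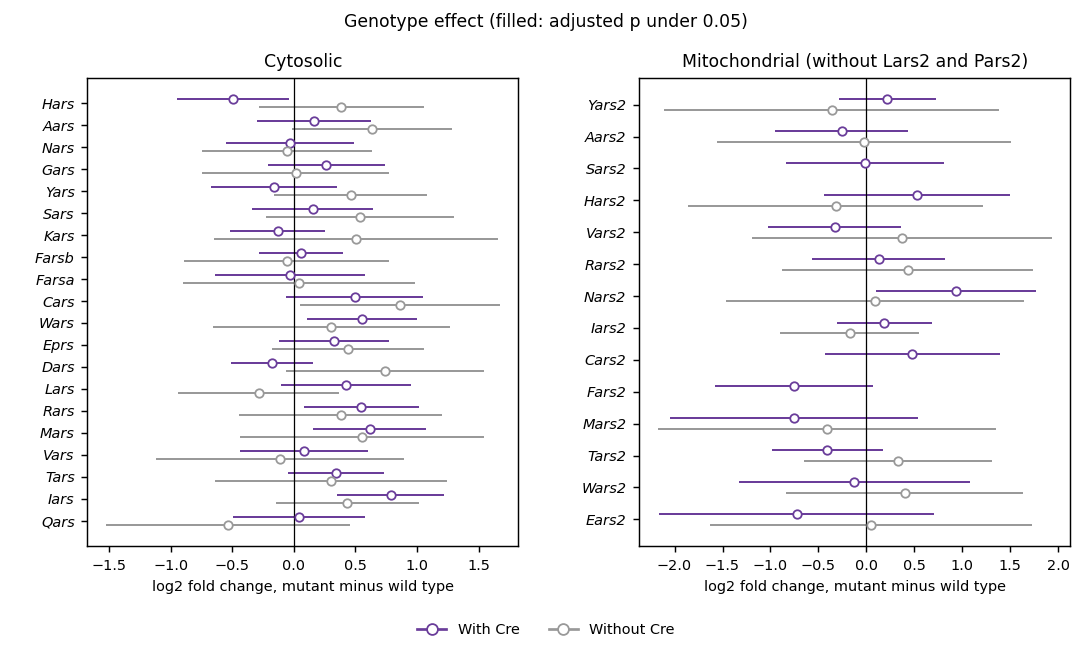
Log2 difference of mutant against wild type with its 95% interval for each tested synthetase, among Cre (purple) and among no-Cre libraries (grey), cytosolic genes left and mitochondrial genes right, with a line at 0. No gene passed the adjusted threshold in either; Iars (0.79) and Hars (-0.49) lie farthest from 0 among the cytosolic genes with Cre on the higher and lower side.

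**Figure D5:**
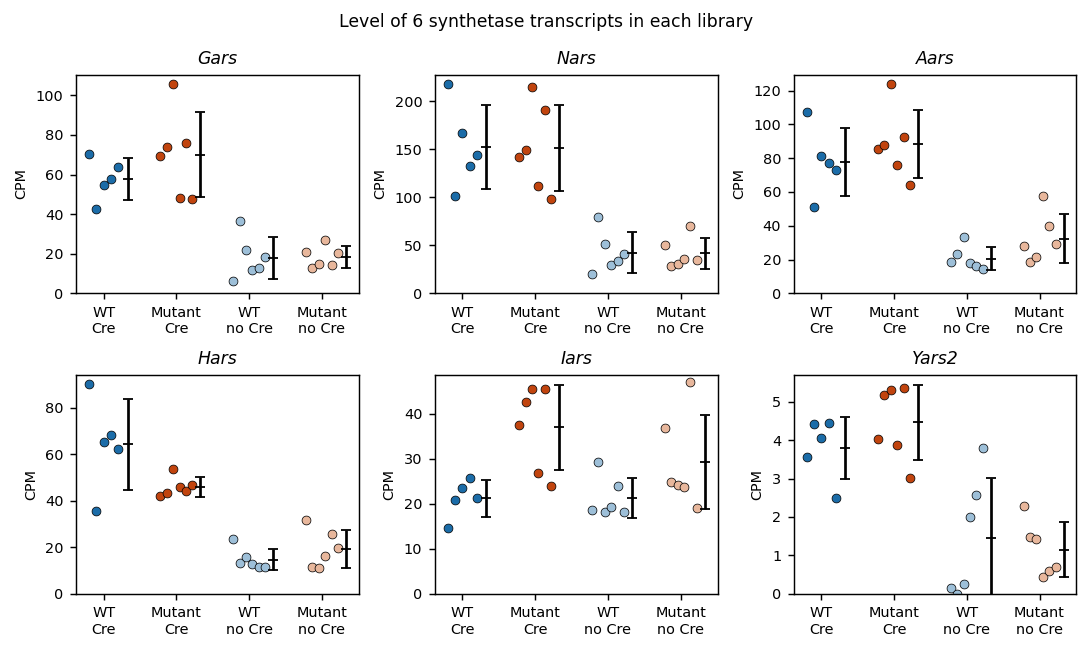
CPM per library (linear axis from 0) for Gars, Nars, Aars, Hars, Iars and Yars2 in the 4 groups, 1 point per library, with the group mean and SD as bars beside the points, cut at 0. Gars, Nars, Aars and Hars are higher in the Cre groups, whereas Iars in wild-type Cre libraries (14.7 to 25.7) lies within or below the no-Cre range (18.1 to 47.0).

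Among no-Cre libraries, which show how genotype moves the untagged background, edgeR called 0 of the 20 cytosolic and 0 of the 11 mitochondrial synthetases tested, and 0.0% of 12588 genes. At an unadjusted p under 0.05 the counts were 1 of 20 and 0 of 11, against 4.49% of all genes, and DESeq2 and limma-voom called 0 members. Cars, at 4.89 to 10.4 CPM in wild type (median 5.76) and 4.95 to 23.5 in mutant (median 13.0), had the smallest p, with a log2 difference of 0.86 (SE 0.38, adjusted p = 0.951). Dars (0.74), Aars (0.64), Yars (0.46) and Iars (0.43) followed at the same adjusted p. Gars differed by 0.01 (SE 0.36, adjusted p = 0.996). The cytosolic median was 0.38 with 15 of 20 above 0, against -0.02 over all genes. It was -0.23 with library totals only, -0.03 with the title-number block and 0.16 without mutant replicate 5. Within title 20301, 9 of 20 were above 0.

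The difference of the 2 genotype effects, with Cre minus without Cre, was called for 0 synthetases by edgeR, DESeq2 and limma-voom, against 0.0207% of 14468 genes by edgeR. At an unadjusted p under 0.05 it was 2 of 20 cytosolic (Hars and Dars) and 0 mitochondrial genes, against 10.5% of all genes. Dars had a difference of -0.91 (SE 0.42, adjusted p = 0.451), Hars -0.87 (SE 0.38, adjusted p = 0.431), Lars 0.71 (SE 0.35, adjusted p = 0.483), Yars -0.61 (SE 0.37, adjusted p = 0.550) and Tars2, the mitochondrial threonyl gene, -0.74 (SE 0.53, adjusted p = 0.613). For Gars it was 0.24 (SE 0.43, adjusted p = 0.867). So the number of cytosolic calls with Cre, 15 in wild type and 10 in the mutant, is not shown to reflect a genotype difference in any single gene.

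Other genes of transfer RNA charging were read from a list of 20 symbols, 19 of them in the tables. By genotype with Cre 0 of 17 tested were called (median -0.22, 2 at an unadjusted p under 0.05, both lower), and without Cre 0 of 18. Over all genes tested with Cre, 0.331% were called by genotype and 17.0% had an unadjusted p under 0.05. Aimp2, a scaffold protein of the multisynthetase complex, stood nearest, at 3.29 to 10.3 CPM in wild-type Cre (median 7.41) and 2.31 to 5.61 in mutant Cre libraries (median 3.68), a log2 difference of -0.98 (adjusted p = 0.185). In wild type, 20.0% of all genes tested were called higher with Cre than without, and of these pathway genes 5 of 17 were. Among them were Aimp2 (2.89, adjusted p = 0.000657), the D-aminoacyl-tRNA deacylase gene Dtd1 (1.53, adjusted p = 0.000755), the RNA-binding La protein gene Ssb (1.37, adjusted p = 0.000784) and the scaffold gene Aimp1 (1.15, adjusted p = 0.0203). Sepsecs, of selenocysteine synthesis, was lower (-1.95, adjusted p = 0.0266), at 0.455 to 3.77 CPM with Cre and 2.51 to 27.2 without. These groups overlapped, and without no-Cre replicate 2, the library at 27.2, the Sepsecs difference was -1.01 (adjusted p = 0.107). The Sepsecs call was lost in 4 of 11 fits that left out 1 library and the Aimp1 call in 3, whereas Aimp2, Dtd1 and Ssb kept theirs in these fits. Of 18 tested in the mutant, Dtd1 (1.27, adjusted p = 0.00442) and Ssb (0.76, adjusted p = 0.0257) were higher. Gatc (-0.77, adjusted p = 0.0238) and Mtfmt (-1.41, adjusted p = 0.0276), both needed to modify charged mitochondrial transfer RNAs, were lower. Over all genes tested in the mutant, 14.1% were called higher with Cre and 19.2% lower. Of the 12 fits that left out 1 library, 6 lost Mtfmt, 5 lost Gatc and 5 lost Ssb, and library totals without TMM turned Gatc to 0.44 (adjusted p = 0.65).

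Lars2 (ENSMUSG00000035202, chromosome 9, 123366927 to 123462666) behaved unlike every other member in amount. It took 2.98 to 6.77% of all counts in wild-type Cre (median 4.49), 2.94 to 4.29% in mutant Cre (median 3.68), 1.06 to 2.22% in wild-type no-Cre (median 1.86) and 1.38 to 2.67% in mutant no-Cre libraries (median 2.15). The wild-type Cre libraries gave 109964, 11793, 44120, 46277 and 77667 CPM, and the mutant Cre libraries 12709 to 31832. The genotypes overlapped, and the log2 difference with Cre was -1.59 (SE 0.47, adjusted p = 0.141). DESeq2 gave -1.62 (adjusted p = 0.00839), limma-voom -1.80 (adjusted p = 0.00894) and the fit without wild-type Cre replicate 2 -1.86 (adjusted p = 0.0113), 3 of the 4 alternatives of 21 that called it. The Cre difference was 1.22 in wild type (adjusted p = 0.147) and -1.76 in the mutant (adjusted p = 0.0705). As a share of all counts, Lars2 was instead higher with Cre in the mutant (2.94 to 4.29% against 1.38 to 2.67%). The sign in the mutant thus changed with the scaling. The share of ribosomal RNA-like counts, in which Lars2 is itself included, overlapped between the Cre groups but had unlike medians. It was 50.6 to 89.0% in wild-type Cre (median 79.3) against 53.0 to 75.3% in mutant Cre libraries (median 60.5). The part of this share in the Lars2 values was not tested. The Lars2 values are not read as the level of the leucyl enzyme's message.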

How the data were processed

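Ribosome-associated RNA of 23 spinal cord libraries was sequenced. Per the submitters' processing notes, the authors used Bowtie2 2.2.0 and RSEM 1.2.12. The genome build is not given in the sources used here. The deposited expected counts (estimated counts) are not normalized and were rounded. The deposited TPM values were used for shares and ratios within a library and to compare the cytosolic sums between libraries. Positions come from matching gene IDs to GENCODE M21 (GRCm38): 37607 of 38924 IDs and 36 of 36 members matched. Groups follow the source labels.

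Each comparison was fitted on all genes passing filterByExpr (minimum count 10, minimum total 15) with edgeR 4.0.16 (quasi-likelihood, TMM) in R 4.3.3, adjusted by Benjamini-Hochberg at 0.05. DESeq2 1.42.0 and limma 3.58.1 (voom) were alternatives, with other scalings and filters, a title-number block, an Xist covariate and each library left out. Fits without title 18405 and without the 3 Cre libraries highest in oligodendrocyte markers were also run but were not planned in advance. SE is the log2 difference divided by the square root of the F statistic. Unmarked fold values are fitted log2 differences. The fits were tested on simulated data. By genotype, a simulated log2 change of 1 was called in 28.6% of changed genes with Cre and 3.1% without. A change of 2 was called in 83.7 and 40.4%, and unchanged genes in 0.04 and 0.02%. A doubling could thus often be missed in the genotype comparisons.

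The members and gene lists were chosen with earlier results of these data known, and the lists are textbook accounts. Full values were given for Gars, called members by smallest p (at most 12), the 10 of smallest p by genotype with Cre and the 5 of smallest p elsewhere. Replicate pairs all differed beyond counting noise (lowest chi-square per degree of freedom 8.53 over 55 pairs), so none was merged. Fractional counts in at least 1 library marked 11 members as sharing reads with other genes, among them Yars, Hars, Hars2, Qars and Wars2. Some items of the promoter search and of the pathway list are not reported here.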

Additional observations from a re-analysis of the deposited data

Results flagged for a closer look

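Single libraries that stood apart from their group by Dixon's test at the 95% level were found in 10 of 116 group-by-measure checks; chance gives about 1 in 20. All values are CPM unless stated. Most were in no-Cre libraries. Wars was at 56.45 in wild-type no-Cre replicate 2 (next 17.36), the no-Cre library highest in motor neuron markers. Hars was at 23.5 (next 15.68) and Lars at 12.77 (next 9.336) in wild-type no-Cre replicate 1, and Rars at 12.9 (next 7.266) in wild-type no-Cre replicate 3. In mutant no-Cre libraries, Tars was at 34.65 in replicate 5 (next 10.16), Lars at 9.45 in replicate 6 (next 7.635) and Ears2 at 8.412 in replicate 4 (next 2.701). Among Cre libraries only Tars2 met the criterion, at 7.506 in wild-type replicate 5 (next 3.641) and 3.923 in mutant replicate 2 (next 3.208). The ratio of cytosolic to mitochondrial TPM was 26.94 in mutant no-Cre replicate 5 (next 10.86), the library with 38 mitochondrial synthetase counts.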

How the results depend on the processing

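Among single-gene results under alternatives, 1004 kept their direction and side of the threshold, 68 lost the threshold, 10 gained it and 18 changed sign. The cause was not tested. Genes called by genotype with Cre numbered 41, against 17 with library totals, 413 with DESeq2, 868 with limma-voom, 89 without a filter, 25 with the title-number replicate block, 11 with all libraries in 1 fit, 1285 without the 3 libraries highest in oligodendrocyte markers and 10 to 1054 leaving out 1 library (lowest without wild-type Cre replicate 3, highest without replicate 2). Higher in the mutant were 29 of the 41, 122 of the 413 and 262 of the 868. Cytosolic calls there were 1 (DESeq2), 2 (limma-voom), 1 (block), 1 (without title 18405), 3 (without those 3 libraries) and 0 to 2 (leaving out 1). Without Cre, 31 genes were called with no filter. The difference of effects gave 3 genes, 1 with totals, 42 with DESeq2, 169 with limma-voom, 9 without a filter and 1 to 8 leaving out 1.

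For Cre in wild type, totals gave 906 genes and 3 cytosolic calls, and the block 4557 genes and 9 cytosolic calls. Leaving out 1 gave 4878 to 6474 genes and 8 to 16 cytosolic calls. Mitochondrial calls were 2 with limma-voom, which called 8547 genes in all, and 0 to 1 leaving out 1. In the mutant, genes called were 6990 with limma-voom, 8175 without a filter and 598 with the block; cytosolic calls were 17 with totals, 17 with limma-voom, 2 with the block and 7 to 16 leaving out 1; mitochondrial calls were 1 with totals, 0 with the block and 1 to 2 leaving out 1. With totals, 3248 of 3523 calls in the mutant were higher, against 1800 of 4247.

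Signs changed with totals for Hars (0.51) and Fars2 (0.19) by genotype with Cre, Iars (-0.14) and Gars (-0.27) without Cre, and Hars (0.63), Dars (0.58), Yars (0.85) and Tars2 (0.57) in the difference of effects. Totals also moved the all-gene median to 0.79, -0.35, -0.08, 1.13 and 1.18 in the genotype effects with and without Cre, the Cre effects in wild type and mutant, and the difference. Gars without Cre was -0.032 without a filter, -0.53 with the block and -0.16 to 0.36 leaving out 1, and its difference of effects -0.026 with limma-voom and -0.087 to 0.41 leaving out 1. Mitochondrial synthetases, at 38 to 1212 counts per library in all, limit what depth can show.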
